A study of Mus musculus with 6 samples.

Results

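A set of 10 genes that encode vascular endothelial growth factor (VEGF) ligands, angiopoietins and their receptors was followed in atherosclerotic arteries of Col15a1-/- (KO) mice and wild type (WT) mice. They are the ligands Vegfa, Vegfb and Vegfc, their receptors Kdr, Flt1 and Flt4, the angiopoietins Angpt1 and Angpt2, and the receptors Tek and Tie1. The members were chosen by gene name, and all 10 were found among the 24391 genes of the deposited count table. Total RNA was sequenced from flash-frozen brachiocephalic arteries with atherosclerotic lesions, labelled as a mixture of cell types, of 3 KO and 3 WT mice, all with a C57BL/6 background and all fed a Western diet for 18 weeks. The series title describes the Col15a1 deletion as specific to smooth muscle cells, while the genotype label reads Col15a1 -/-; the labels used here name no Cre driver, Apoe genotype, age or sex. Col15a1 encodes a chain of type XV collagen, a component of basement membrane zones.

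VEGF-A drives the growth and permeability of endothelium mainly through Kdr, whereas Flt1 binds VEGF-A tightly and, in part as a soluble form, limits how much of it reaches Kdr. Vegfb encodes a ligand of Flt1, and Vegfc a ligand of Flt4 that directs lymphatic growth. Angiopoietin 1, made largely by mural cells, activates Tek and stabilises vessels, angiopoietin 2 is released by endothelium and can oppose that signal, and Tie1 modulates Tek without a high-affinity ligand of its own among the angiopoietins. In arteries these genes serve the luminal endothelium and the vasa vasorum, the small vessels that feed the arterial wall and advanced plaques.

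Promoter sequence is shown for Vegfa, Kdr and Flt1, since these members had the 3 largest positive log2 fold changes described below. The sequences are the 250 bases before the transcription start in RefSeq (GRCm38.p6, gene strand, 5′ to 3′). Capitals mark GGAA on either strand, the core letters bound by ETS factors, a family that includes regulators of endothelial genes.
Vegfa, chr17:46032378-46032627, minus strand: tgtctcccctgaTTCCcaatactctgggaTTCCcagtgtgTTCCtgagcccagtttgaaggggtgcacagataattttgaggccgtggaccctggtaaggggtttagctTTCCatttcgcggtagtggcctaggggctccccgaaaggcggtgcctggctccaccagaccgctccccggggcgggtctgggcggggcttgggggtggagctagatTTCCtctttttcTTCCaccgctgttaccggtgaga
Kdr, chr5:75978456-75978705, minus strand: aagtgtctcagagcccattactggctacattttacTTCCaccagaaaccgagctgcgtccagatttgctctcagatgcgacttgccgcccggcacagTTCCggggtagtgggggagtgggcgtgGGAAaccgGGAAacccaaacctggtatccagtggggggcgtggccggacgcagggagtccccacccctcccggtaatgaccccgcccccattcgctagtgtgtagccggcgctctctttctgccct
Flt1, chr5:147726012-147726261, minus strand: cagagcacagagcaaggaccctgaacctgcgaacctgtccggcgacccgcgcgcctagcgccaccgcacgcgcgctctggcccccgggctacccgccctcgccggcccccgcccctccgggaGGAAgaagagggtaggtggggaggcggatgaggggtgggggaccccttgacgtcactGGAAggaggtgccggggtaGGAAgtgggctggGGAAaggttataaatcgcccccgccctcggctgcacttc
GGAA occurred 6 times before Vegfa, 4 times before Kdr and 4 times before Flt1, and 93.4% of 27025 RefSeq promoter windows of this length held it, with a median of 3 matches. ACGTG or GCGTG, the core letters bound by hypoxia-inducible factors, occurred 2 times before Kdr, 1 time before Flt1 and 0 times before Vegfa, against 38.6% of all windows with a match on either strand. RefSeq lists a second start for Vegfa, whose window (chr17:46025164-46025413) held GGAA 2 times and the hypoxia core 2 times. That window lies downstream of the printed one, within the gene. Sequence just after the second start was found in 0 Vegfa transcripts of the GENCODE set, against 2 for the printed start. The counts above hold for the printed window. TATAAA was found 1 time before Flt1, at position -31 from the start, and in 13.0% of all windows. Of the 10 members, 8 matched the promoter table. Matches of letters are descriptions of these windows.

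The libraries held 23133078, 23332277 and 26228384 counts in KO 1, KO 2 and KO 3, and 22223584, 26982005 and 26972541 in WT 1, WT 2 and WT 3. Col15a1 counts were 2307 to 4542 in KO libraries and 12111 to 12973 in WT libraries, with a log2 fold change of -1.62 (SE 0.33). Adjusted over all genes tested, its p was 0.587 in edgeR (quasi-likelihood test) and 0.00224 in DESeq2. KO 3 and WT 2 stood apart from the other libraries: the summed level of the 12 sympathetic neuron and Schwann cell markers was 4175 CPM (counts scaled to the size of each library) in KO 3 and 2019 CPM in WT 2, against 140 to 193 CPM elsewhere. Fold changes of the members are therefore given with and without these 2 libraries. WT 2 also differed in 2 other genes, with Rn45s at 2.04% and Lars2 at 0.154% of its counts. In the other libraries Rn45s was at 6.25% to 10.4% and Lars2 at 2.19% to 3.83%. With Rn45s and Lars2 left out of the library sizes, the edgeR log2 fold change was 0.57 for Kdr and 0.29 for Tek. Scaling factors were computed again in that fit and offset the change in library size. These values therefore cannot show whether the 2 genes matter. The part of these low shares in the member levels of WT 2 was not tested. The deposited counts are sums over all exons of a gene, so they do not separate the isoforms of Vegfa or the soluble form of Flt1. Fewer cells of a type and less RNA per cell cannot be told apart in these tissue libraries.

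Compared per kilobase of exon, the angiopoietins stood at both ends of the range of levels. Angpt2 had the highest level when KO and WT were pooled, with a level over all 6 libraries of 26.6 CPM per kb, above 86.3% of genes tested; it ranked 2 in KO, at 23.2 ± 9.69 CPM per kb behind Tie1 at 24.3 ± 8.23, and 1 in WT, at 30.0 ± 5.08 CPM per kb (SD, n = 3 each). Tie1 followed at 23.9 CPM per kb, then Vegfa and Tek, both at 16.7 CPM per kb. Flt1 was at 9.81, Vegfb at 8.46 and Kdr at 8.21 CPM per kb, and Vegfc at 5.46 CPM per kb. Flt4 at 3.03 and Angpt1 at 2.49 CPM per kb were lowest. Tek was above Flt1, Kdr above Vegfc, and Vegfc above Flt4 in all 6 libraries. The other neighbours changed places in at least 1 library: Angpt2 was above Tie1 in 4 of 6 libraries, and Vegfa was above Tek in 3 of 6. KO 3 had another order at the top, with Vegfa first at 22.6 CPM per kb and Angpt2 at rank 5, with 12.3 CPM per kb.

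No member differed between KO and WT arteries past an adjusted p of 0.05. All 10 were abundant enough to be tested, and 8 of 10 had a positive log2 fold change, against 60.9% of the 15937 genes tested. The median over the members was 0.27, and over all genes tested it was 0.068. In edgeR 0 of 10 members passed, and 0% of all genes tested did. At an unadjusted p under 0.05 edgeR gave 3 members (Vegfa, Kdr and Flt4), all higher in KO, against 4.02% of all genes in that direction (641 genes). This count was 0 without KO 1, 0 without WT 2, 0 without both WT 2 and KO 3, and 1 without KO 3, without WT 1 or without WT 3. It was 3 without KO 2 (Vegfa, Kdr and Flt1), and 4 with the level of the neuronal list as a covariate (Vegfa, Kdr and Flt4 higher and Angpt2 lower in KO). The number of all genes under that unadjusted p, in either direction, also changed with the setting. It was 3031 with the covariate, against 1275 in the main fit. It was 1347 without KO 1, 1099 without KO 2, 1334 without KO 3, 1079 without WT 1, 761 without WT 2 and 725 without WT 3. Without both WT 2 and KO 3 it was 1613. The median over the members was 0.11 without KO 1 and 0.11 without WT 2, against 0.0095 and 0.054 over all genes tested. It was 0.35 without KO 2, 0.31 without KO 3, 0.37 without WT 1 and 0.29 without WT 3. Without both WT 2 and KO 3 it was 0.18, against 0.0026 over all genes tested. DESeq2 called 0 members and 53 genes in all (0.347% of those with an adjusted p), and limma-voom called 0 genes.

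**Figure D1:**
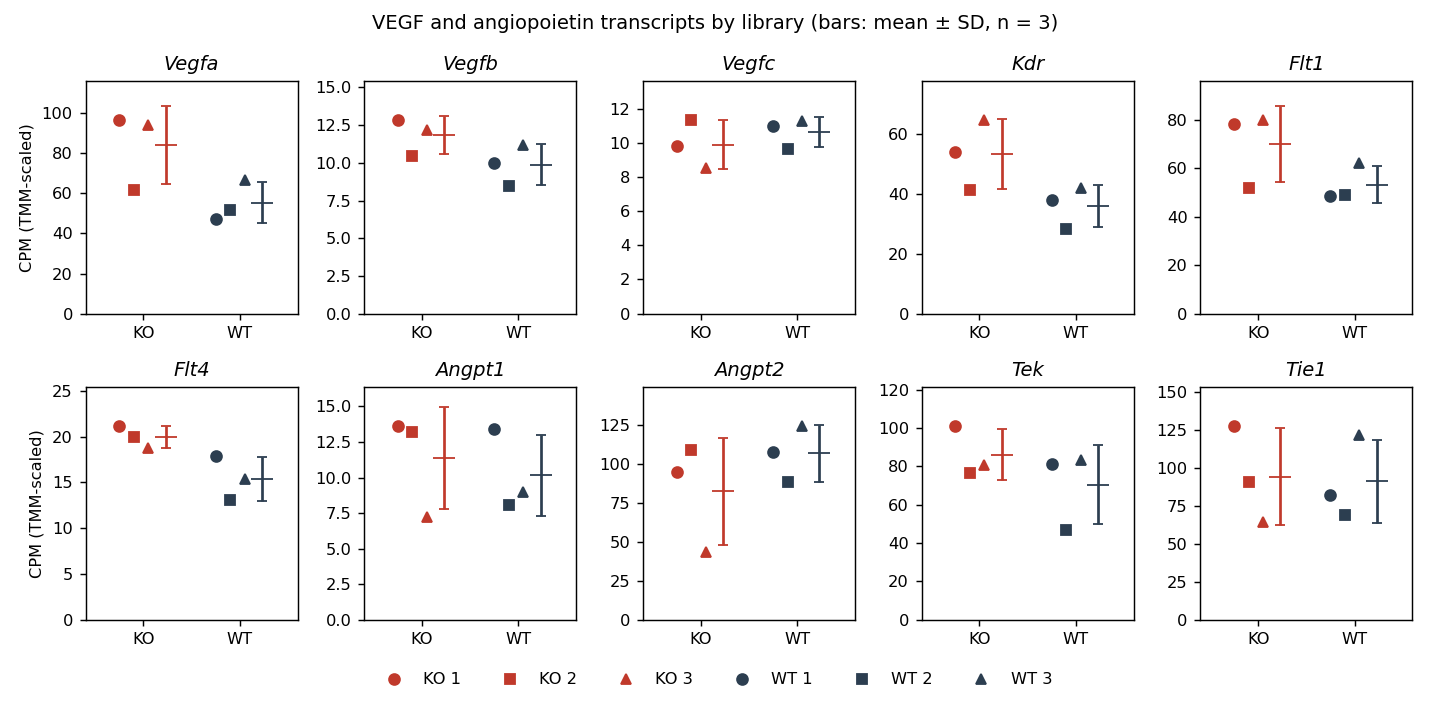
Level of each member in CPM after TMM scaling (vertical axes, each from 0) in the 3 KO and 3 WT libraries (horizontal axis); points are libraries and bars the mean ± SD (n = 3). The KO and WT points overlap for every member except Flt4, where the lowest KO value was 18.7 CPM and the highest WT value 17.9 CPM.

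Among the ligands, Vegfa had the largest difference of the 10 members. Vegfa (chromosome 17, 46153943 to 46169326, mm9) was at 96.5, 61.7 and 94.2 CPM in KO 1, KO 2 and KO 3, and at 47.0, 51.9 and 66.6 CPM in WT 1, WT 2 and WT 3. KO 1 and KO 3 were above every WT library, while KO 2 lay below WT 3, so the groups overlapped. The mean was 84.2 ± 19.4 CPM in KO and 55.1 ± 10.2 CPM in WT (SD, n = 3 each). In edgeR this gave 0.61 on the log2 scale (SE 0.22, 95% interval 0.070 to 1.15). Its edgeR p was 0.0327 unadjusted and 0.598 adjusted. The difference was 0.47 without WT 2 and KO 3 and ran from 0.43 to 0.79 with any 1 library left out.

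Vegfb (chromosome 19, 7056962 to 7062141) was less abundant and closer between the groups. It was at 12.8, 10.4 and 12.2 CPM in KO 1, KO 2 and KO 3, and at 9.96, 8.47 and 11.2 CPM in WT 1, WT 2 and WT 3. As for Vegfa, KO 1 and KO 3 were highest and KO 2 was below WT 3. Its log2 fold change was 0.26 (SE 0.17, edgeR adjusted p 0.745). With any 1 library left out it ran from 0.13 (without KO 1) to 0.34 (without KO 2), and it was 0.16 without WT 2. Without WT 2 and KO 3 it was 0.13. Vegfc (chromosome 8, 55162886 to 55271808) was at 9.83, 11.3 and 8.52 CPM in KO 1, KO 2 and KO 3, and at 11.005, 9.65 and 11.3 CPM in WT 1, WT 2 and WT 3. Its lowest value was in KO 3 and its highest in KO 2, and the log2 fold change was -0.10 (SE 0.16, 95% interval -0.50 to 0.29, edgeR adjusted p 0.916). It ran from -0.22 to -0.0078 with any 1 library left out and was -0.084 without WT 2 and KO 3.

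All 3 VEGF receptors had positive log2 fold changes, and Flt4 was the only member whose groups did not overlap. Flt4 (chromosome 11, 49423181 to 49466241), the receptor of lymphatic endothelium, was at 21.2, 19.99 and 18.7 CPM in KO 1, KO 2 and KO 3, and at 17.9, 13.1 and 15.3 CPM in WT 1, WT 2 and WT 3. Every KO library was above every WT library. Of all genes tested, 8.33% had each KO library above each WT library, so 1 of 10 members is near that share, and 0 of 10 members had each KO library below each WT library, against 8.38% of all genes. The log2 fold change was 0.37 (SE 0.15, 95% interval 0.0076 to 0.74), with an unadjusted p of 0.0466 and an adjusted p of 0.617 in edgeR. It was 0.30 without WT 2 and KO 3.

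Kdr (chromosome 5, 76329299 to 76374453), the main signalling receptor for VEGF-A in endothelium, was at 53.9, 41.4 and 64.9 CPM in KO 1, KO 2 and KO 3, and at 38.0, 28.3 and 41.9 CPM in WT 1, WT 2 and WT 3. KO 3 was the highest and WT 2 the lowest of all libraries, and KO 2 and WT 3 were nearly level. The mean was 53.4 ± 11.8 CPM in KO and 36.1 ± 6.97 CPM in WT (SD, n = 3 each). On the log2 scale the difference was 0.57 (SE 0.22), with an unadjusted p of 0.0420 and an adjusted p of 0.617 in edgeR. Without WT 2 and KO 3, the libraries at both ends, it was 0.25 (unadjusted p 0.159, adjusted p 0.664).

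Flt1 (chromosome 5, 148373772 to 148537564), which also binds VEGF-A, was at 78.2, 51.9 and 80.1 CPM in KO 1, KO 2 and KO 3, and at 48.5, 49.0 and 62.1 CPM in WT 1, WT 2 and WT 3. Its libraries stood in much the same order as those of Vegfa, with KO 1 and KO 3 highest and WT 1 lowest. Its log2 fold change was 0.40 (SE 0.20, edgeR adjusted p 0.680). With any 1 library left out it ran from 0.24 (without KO 1) to 0.57 (without KO 2). Without WT 2 and KO 3 it was 0.23.

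**Figure D2:**
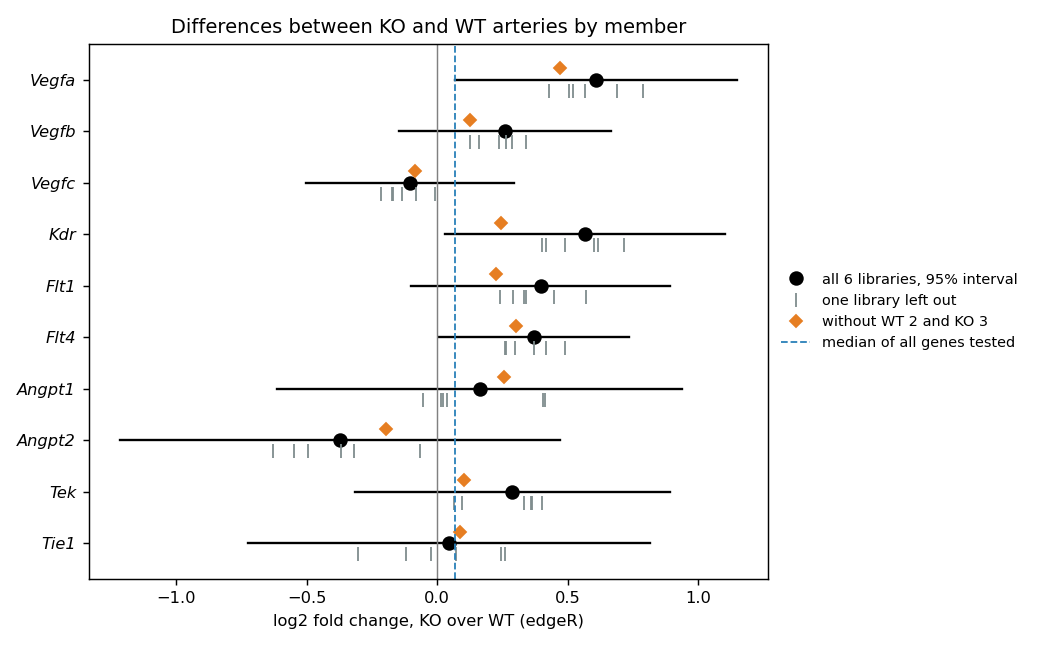
Log2 fold change of each member, KO over WT, from edgeR (horizontal axis): black points with 95% intervals use all 6 libraries, grey ticks leave out 1 library each, and orange diamonds leave out WT 2 and KO 3. The intervals of Vegfa, Kdr and Flt4 lie above 0 before adjustment over all genes, and Kdr moves to 0.25 without WT 2 and KO 3.

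The angiopoietins did not show the pattern of Vegfa. Angpt2 (chromosome 8, 18690263 to 18741562) was at 94.9, 109 and 43.6 CPM in KO 1, KO 2 and KO 3, and at 108, 88.5 and 125 CPM in WT 1, WT 2 and WT 3. KO 3 was far below the other libraries, while KO 1 and KO 2 lay within the WT range. The mean was 82.6 ± 34.5 CPM in KO and 107 ± 18.1 CPM in WT (SD, n = 3 each), or -0.37 on the log2 scale (SE 0.35, 95% interval -1.22 to 0.47, edgeR adjusted p 0.851). It was -0.55 without KO 1, -0.63 without KO 2, -0.068 without KO 3 and -0.20 without WT 2 and KO 3. With the level of the neuronal list as a covariate it was -0.43 (edgeR unadjusted p 0.0155, adjusted p 0.155). In that fit 3031 of all genes had an unadjusted p under 0.05, against 1275 in the main fit. Angpt2 lies within the span of Mcph1 on the other strand, with 0 exon bases shared, and no exon of the other 9 members overlapped another gene of the table.

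Angpt1 (chromosome 15, 42256213 to 42508523) was at 13.6, 13.2 and 7.22 CPM in KO 1, KO 2 and KO 3, and at 13.4, 8.07 and 8.96 CPM in WT 1, WT 2 and WT 3. KO 1, KO 2 and WT 1 were nearly equal, and KO 3 was lowest. Its log2 fold change was 0.16 (SE 0.32, edgeR adjusted p 0.924), and without KO 1 it turned to -0.053. With any other library left out it ran from 0.016 to 0.41, and without WT 2 and KO 3 it was 0.26.

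The ratio of Angpt2 to Angpt1, in counts per kb of exon, needs no scaling between libraries. It was 8.44, 10.02 and 7.33 in KO 1, KO 2 and KO 3, and 9.74, 13.3 and 16.8 in WT 1, WT 2 and WT 3. KO 2 was above WT 1, so the groups overlapped. The mean log2 ratio was 3.09 ± 0.23 in KO and 3.70 ± 0.40 in WT (SD, n = 3 each), a difference of -0.61. A two-sided exact permutation test gave p = 0.20, and 3 against 3 libraries cannot go below 0.10. The difference was -0.48 without WT 2 and KO 3.

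The values of both Tie receptors overlapped widely between the groups. Tek (chromosome 4, 94405980 to 94541667), the angiopoietin receptor, was at 101.2, 76.6 and 80.8 CPM in KO 1, KO 2 and KO 3, and at 81.4, 47.0 and 83.4 CPM in WT 1, WT 2 and WT 3. WT 2 was far below the remaining libraries, and the other WT values lay within the KO range. The log2 fold change was 0.29 (SE 0.25, edgeR adjusted p 0.832). With any 1 library left out it ran from 0.064 (without WT 2) to 0.40 (without WT 1), and it was 0.094 without KO 1. Without WT 2 and KO 3 it was 0.10. Tie1 (chromosome 4, 118143796 to 118162454) was at 128, 90.6 and 64.2 CPM in KO 1, KO 2 and KO 3, and at 82.4, 69.1 and 122 CPM in WT 1, WT 2 and WT 3. Both groups spanned nearly the same range, and KO 3 was the lowest library. The log2 fold change was 0.047 (SE 0.32, 95% interval -0.72 to 0.82, edgeR adjusted p 0.970), and it turned to -0.30 without KO 1, -0.022 without WT 1 and -0.12 without WT 2. Without WT 2 and KO 3 it was 0.085. Both genes are on chromosome 4, as is Col15a1, at 47220884 to 47326037.

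**Figure D3:**
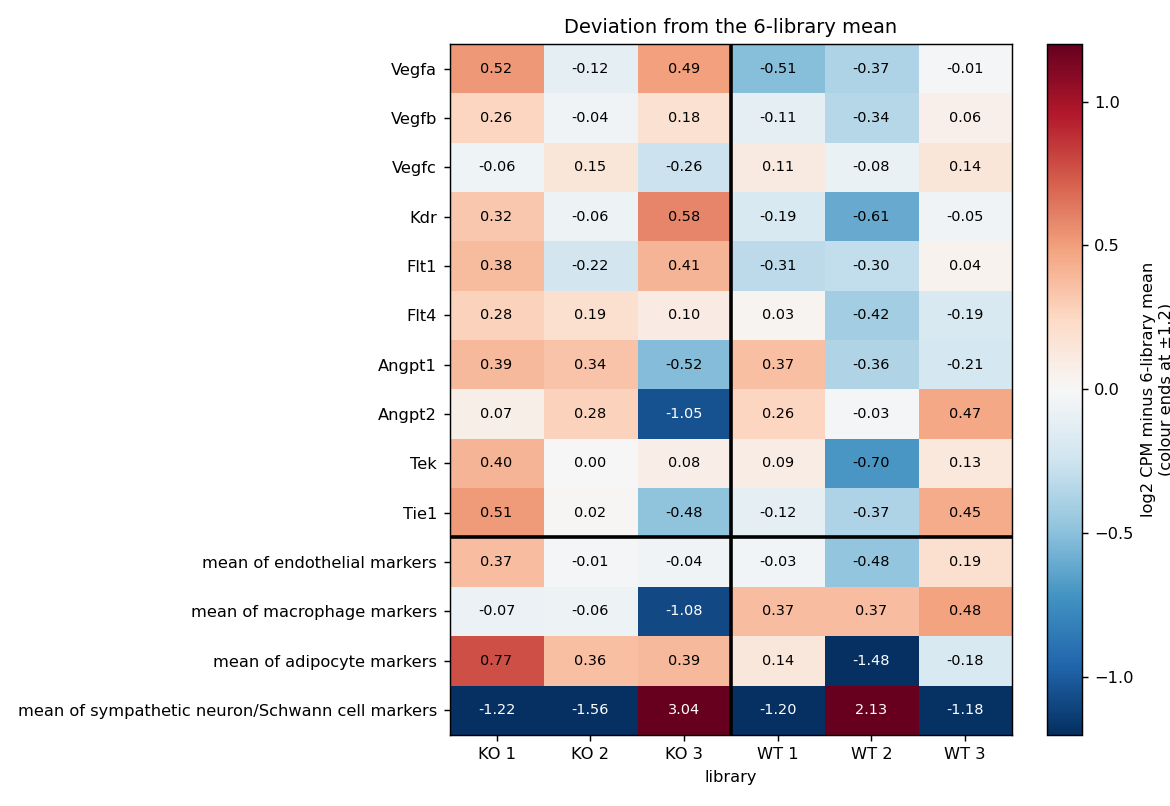
Each cell gives the log2 CPM of a member, or the mean log2 CPM of a marker list, minus its mean over the 6 libraries (columns: KO libraries, then WT libraries); red is above and blue below that mean. In KO 3 Vegfa, Kdr and Flt1 are above and Angpt1, Angpt2 and Tie1 below, with deviations from 0.58 for Kdr to -1.05 for Angpt2, and WT 2 is below for all 10 members.

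The members were next set beside the endothelial content of each library. The 20 endothelial markers summed to 1506 to 2177 CPM in KO libraries and 1282 to 2138 CPM in WT libraries, and their mean log2 CPM was 5.45 ± 0.23 in KO and 5.23 ± 0.34 in WT (SD, n = 3 each, exact permutation p = 0.50). Of these 20 markers 13 were above 0 and 7 below 0 in log2 fold change, against 60.9% of all genes tested above 0. Their median was 0.12, against 0.068 over all genes tested, and it was -0.12 without KO 1 and -0.049 without WT 2. With any other library left out it ran from 0.13 (without WT 1) to 0.21 (without KO 3). In edgeR 0 passed after adjustment. An unadjusted p under 0.05 was found for 2 of 20, Adgrl4 and Gpihbp1, both higher in KO, against 4.02% of all genes in that direction. Adgrl4, an adhesion receptor gene of endothelium, averaged 38.3 ± 15.8 CPM in KO and 18.1 ± 2.81 CPM in WT (SD, n = 3 each). It was at 37.2, 23.1 and 54.6 CPM in KO 1, KO 2 and KO 3, and at most 20.9 CPM in WT. Gpihbp1, which encodes the anchor of lipoprotein lipase on capillary endothelium, averaged 9.51 ± 5.78 CPM in KO and 3.13 ± 1.49 CPM in WT. It was at 7.89, 4.71 and 15.9 CPM in KO 1, KO 2 and KO 3, and at most 4.05 CPM in WT. Both genes were highest in KO 3. Icam2 and Emcn, the next by p, had log2 fold changes of 0.39 (SE 0.23) and 0.42 (SE 0.31).

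Relative to the mean of the endothelial markers, Kdr was the only member whose groups did not overlap. Its log2 level minus that mean was 0.042, 0.045 and 0.72 in KO 1, KO 2 and KO 3, and -0.058, -0.034 and -0.14 in WT 1, WT 2 and WT 3. KO 1 and KO 2 lay just above WT 2, and KO 3 far above all. The difference of means was 0.35, with an exact permutation p of 0.10, the smallest that 3 against 3 libraries allow, and 0.667 adjusted over the 10 members. With any 1 library left out the difference ran from 0.12 (without KO 3) to 0.46 (without KO 1). Without WT 2 and KO 3 it was 0.14. On this relative scale 1.63% of all genes tested had each KO library above each WT library, as Kdr did, and 1 of 10 members is above that share. In either direction 13.1% had groups that did not overlap, and 1 of 10 members is near that share. A count of 1 gene is no result about the members as a set. Angpt2 had the largest difference, -0.68, with 0.855, 1.44 and 0.154 in KO 1, KO 2 and KO 3 and 1.45, 1.61 and 1.43 in WT 1, WT 2 and WT 3 (exact permutation p = 0.20, adjusted over the members 0.667). It was -0.34 without KO 3, -0.99 without KO 2 and -0.29 without WT 2 and KO 3. For Vegfa the difference was 0.385 (exact permutation p = 0.20). With any 1 library left out it ran from 0.21 (without KO 3) to 0.53 (without KO 2). Without WT 2 and KO 3 it was 0.36. For the remaining 7 members the difference ran from -0.32 for Vegfc to 0.17 for Flt4. With any 1 library left out, Vegfc ran from -0.48 to -0.19 and Flt4 from 0.021 to 0.26.

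**Figure D4:**
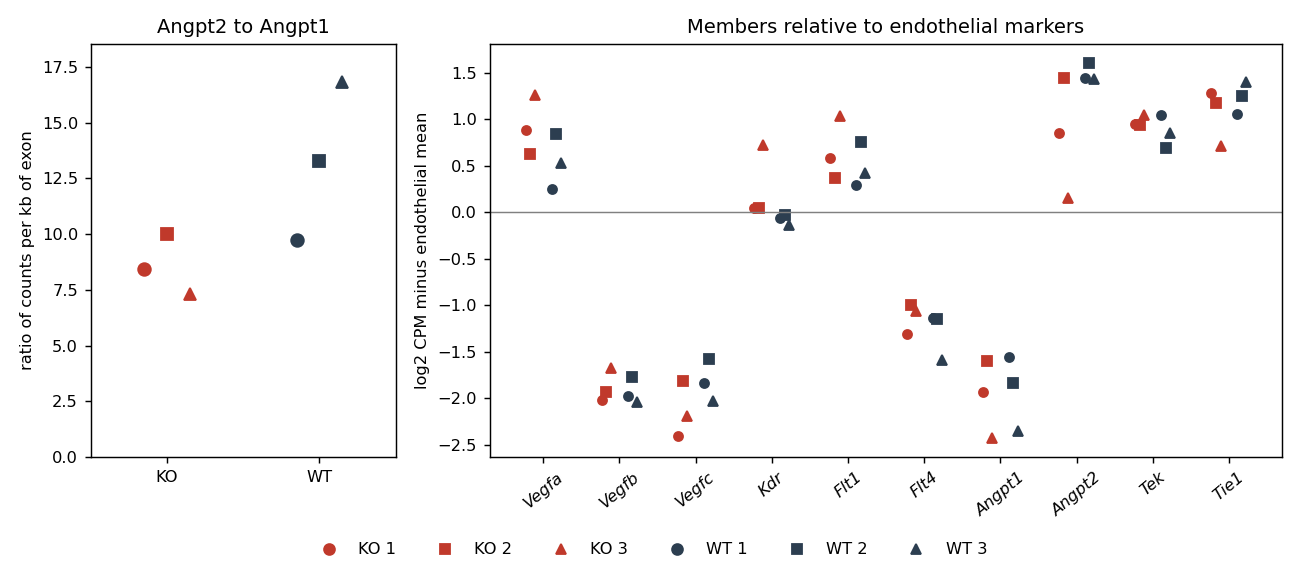
Left, the ratio of Angpt2 to Angpt1 in counts per kb of exon in each library, from 7.33 to 10.02 in KO and from 9.74 to 16.8 in WT. Right, log2 CPM of each member minus the mean of the 20 endothelial markers in the same library, where only the KO and WT points of Kdr do not overlap.

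Other genes of the VEGF and Tie pathways showed no shared direction. Of 24 such genes, among them the co-receptors Nrp1 and Nrp2 and the phosphatase gene Ptprb, 13 were above 0 and 11 below 0 in log2 fold change; their median was 0.047, against 0.068 over all genes tested. In edgeR 0 passed after adjustment and 1 had an unadjusted p under 0.05, lower in KO, against 3.98% of all genes in that direction. That gene was Rcan1, a calcineurin inhibitor that VEGF induces in endothelium, at 43.2, 52.8 and 36.3 CPM in KO 1, KO 2 and KO 3, and at 62.4, 68.9 and 52.3 CPM in WT 1, WT 2 and WT 3 (log2 fold change -0.47, SE 0.18). KO 2 was just above WT 3, so the groups overlapped. Nrp2, a co-receptor for VEGF-C, had a log2 fold change of -0.40 (SE 0.17) and Plxnd1, a semaphorin receptor of endothelium, one of -0.39 (SE 0.24). Shb, an adaptor of Kdr, was at 13.8 to 14.9 CPM in KO and 12.4 to 12.5 CPM in WT, the only one of the 24 whose groups did not overlap, against 16.7% of all genes tested in either direction (log2 fold change 0.20, SE 0.11).

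Most lymphatic markers had positive log2 fold changes, as did Flt4, and none passed after adjustment. Of 8 markers 7 were tested, Ccl21a being listed at 0 in every library. Of those tested, 6 of 7 were above 0 in log2 fold change, against 60.9% of all genes tested. Their median was 0.30, against 0.068 over all genes tested. Their summed level was 531 to 822 CPM in KO and 495 to 734 CPM in WT, most of it from Itga9, an integrin gene that other cells of the artery also express, at 348 to 647 CPM in KO and 342 to 568 CPM in WT. Lyve1, which lymphatic endothelium shares with resident macrophages, was at 32.7, 46.7 and 63.2 CPM in KO 1, KO 2 and KO 3, and at 28.3, 12.4 and 24.5 CPM in WT 1, WT 2 and WT 3 (edgeR adjusted p 0.587). Pdpn, a lymphatic marker also made by fibroblasts and macrophages, was at 24.0 to 43.9 CPM in KO and 50.2 to 58.4 CPM in WT (edgeR adjusted p 0.587). Prox1, the defining transcription factor of lymphatic endothelium, was at 3.01 to 6.62 CPM in KO and 1.39 to 5.18 CPM in WT, and Mmrn1 at 22.6 to 28.8 CPM in KO and 10.2 to 25.6 CPM in WT. The groups did not overlap for Lyve1, higher in KO, and Pdpn, lower in KO, and overlapped for Prox1 and Mmrn1. Of all genes tested, 16.7% had groups that did not overlap in either direction.

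Genes of the hypoxia response, which is known to raise Vegfa and Flt1, had small positive log2 fold changes on the whole. Of 18 such genes, chosen without the members, 16 were above 0 in log2 fold change, against 60.9% of all genes tested. Their median was 0.13, against 0.068 over all genes tested. Without WT 2 and KO 3 it was 0.061, against 0.0026 over all genes tested. In edgeR 0 passed, and 0 had an unadjusted p under 0.05. Bnip3, a mitophagy receptor gene, was at 41.1, 36.0 and 92.9 CPM in KO 1, KO 2 and KO 3, and at 32.4, 35.3 and 21.9 CPM in WT 1, WT 2 and WT 3. Its high value in KO 3 stood apart from KO 1 and KO 2. Egln1, an oxygen sensor gene, averaged 75.6 CPM in KO and 62.5 CPM in WT, and Hk2, which encodes a hexokinase, 96.0 CPM in KO and 78.5 CPM in WT. Hif1a itself had a negative log2 fold change of -0.52 (SE 0.29).

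Among 12 mural cell markers, which mark the main source of Angpt1, 8 were above 0 and 4 below 0 in log2 fold change (median 0.34). Of all genes tested, 60.9% were above 0. The summed level of the mural markers was 6915 to 15671 CPM in KO and 6592 to 11026 CPM in WT. Rgs5, a pericyte marker, averaged 266 CPM in KO and 202 CPM in WT without overlap (unadjusted p 0.0269, edgeR adjusted p 0.587), whereas Pdgfrb, the receptor that recruits pericytes, had a log2 fold change of -0.38 (SE 0.28). Des and Mcam had log2 fold changes of 0.55 (SE 0.32) and 0.43 (SE 0.26).

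Markers of other cell types also differed between the libraries. The 12 adipocyte markers, all with a positive log2 fold change, summed to 1336 to 1805 CPM in KO libraries and 367 to 1123 CPM in WT libraries, with the lowest level in WT 2. The 15 macrophage markers, of which 13 had a negative log2 fold change, summed to 1907 to 5002 CPM in KO libraries and 6322 to 7668 CPM in WT libraries, with the lowest level in KO 3. The 12 striated muscle markers, all with a positive log2 fold change, summed to 65.1 to 311 CPM in KO and 18.9 to 107 CPM in WT. A positive log2 fold change was found for 60.9% of all genes tested. No marker of these 3 lists or of the neuronal list was at 0 in any library. In summed level WT 2 was thus lowest for adipocyte and striated muscle markers. It was also lowest for the endothelial (1282 CPM), mural, lymphatic, hypoxia and other pathway lists. Among the members WT 2 was lowest for Vegfb, Kdr, Flt4 and Tek. KO 3 was lowest for macrophage markers, and among the members for Vegfc, Angpt1, Angpt2 and Tie1. The part of these cell types in the values of the 10 members was not tested.

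The genes whose log2 CPM over the 6 libraries was most like that of the members were listed as a description, among 13730 genes, with libraries that share their split into KO 3, WT 2 and the rest. For the mean of Kdr, Flt1, Tek and Tie1 these were Ushbp1, Afap1l1, Rdh5, Cuedc1 and Cd36, with Pearson r from 0.984 to 0.993. For Vegfa they were Slc9a3r2, Arhgap21, Rasd2, Deaf1 and Sbk1 (0.978 to 0.994). For Angpt1 they were Ercc6l2, Hdac9, Ints2, Cpsf3 and Sec63 (0.984 to 0.993), and for Angpt2 F2r, Plekha2, Vrk2, Prokr1 and Elovl1 (0.994 to 0.997). F2r, which encodes a thrombin receptor, averaged 88.0 CPM in KO and 110 CPM in WT, and Cd36, a fatty acid and scavenger receptor gene, 394 CPM in KO and 264 CPM in WT.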

How the data were processed

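Groups and replicate numbers follow the sample titles, and the design text gives 3 animals per group. The deposited file holds raw counts, which the authors made with featureCounts 1.4.6-p4 on mm9 exons summed by gene name, unstranded, per the file headers. Per the submitters' processing notes, CASAVA, STAR (listed as 3.0), Subread and DESeq2 were also used. Of all alignments 32.6% to 36.9% fell on genes, and 0.347% to 0.448% were dropped as ambiguous.

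Tests used edgeR 4.0.16 under R 4.3.3 (quasi-likelihood F-test, TMM, filterByExpr minimum count 10). Benjamini-Hochberg adjustment ran over 15937 genes (threshold 0.05). SEs derive from the F statistic. CPM are TMM-scaled, with a prior count of 2 for log2 CPM, and levels per kb use the deposited exon length. Ratios and relative levels had two-sided exact permutation tests. DESeq2 1.42.0, limma 3.58.1 (voom), other scalings, other filters and left-out libraries were alternatives, and the edgeR step was tested on simulated data. No library pair was within sampling noise. Members, lists and tests were chosen with earlier results of these data known. Named are Col15a1, the members, up to 4 genes per list by p, and 5 genes per likeness pattern. Nrp1, Ptprb and Ccl21a were added later, and Itga9, Mcph1, Rn45s and Lars2 are also named outside this rule.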

Additional observations from a re-analysis of the deposited data

How the results depend on the processing

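The direction of the log2 fold change was kept in all 18 alternatives for Vegfa, Vegfb, Vegfc, Kdr, Flt1, Flt4, Angpt2 and Tek, and 0 members passed in any of them. With 1 library left out, Angpt1 ran from -0.053 to 0.41 and Tie1 from -0.30 to 0.26. The count of all genes changed was 53 in DESeq2, 1 without WT 2 and KO 3, 2 with the level of the neuronal list as a covariate, and 0 elsewhere, and 0 pathway genes passed in any setting. The cause of these differences was not tested. The Angpt2 to Angpt1 difference ran from -0.81 to -0.42 with 1 library left out. Relative to endothelial markers, the groups of 1 to 4 members did not overlap with 1 library left out, and those of 2 without WT 2 and KO 3. Fewer samples make such a gap more frequent, and the share over all genes was computed only with all 6 libraries. These counts therefore cannot be set beside a share and are no result about the members. On that scale Vegfb ran from -0.050 to 0.13, Flt1 from -0.017 to 0.31 and Angpt1 from -0.29 to 0.15 with 1 library left out; without WT 2 and KO 3 Angpt1 was at 0.19, Tek at -0.0048 and Tie1 at 0.0008. The order of levels kept 8 of 10 ranks with RLE size factors, where Vegfa and Tek changed places. Same-numbered libraries did not deviate together in every pair (correlations 0.43, -0.68 and -0.58). The highest correlation was 0.77, between KO 3 and WT 2, the libraries with high neuronal markers. With these libraries included, the correlations cannot decide whether the numbers pair the samples. With the replicate block 0 genes and 0 members passed. The unadjusted count there was 2 members (Vegfa and Kdr), beside 741 of all genes, and the Angpt2 to Angpt1 difference was -0.61 (exact p = 0.25). Members at about 10 CPM still had at least 183 counts per library, and precision is limited by the 3 animals per group.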

Other observations

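Among ratios between members, Kdr to Tie1 was highest and Tie1 to Tek lowest in KO 3. The ratio of Kdr to Tie1, in counts per kb of exon, was 0.30, 0.33 and 0.72 in KO 1, KO 2 and KO 3, and 0.33, 0.29 and 0.24 in WT 1, WT 2 and WT 3. The ratio of Tie1 to Tek was 1.53, 1.43 and 0.96 in KO 1, KO 2 and KO 3, and 1.23, 1.78 and 1.78 in WT 1, WT 2 and WT 3. Between the ligands, KO 1 and KO 3 were highest: the ratio of Vegfa to Vegfc was 4.43, 2.45 and 4.99 in KO 1, KO 2 and KO 3, and 1.92, 2.42 and 2.66 in WT 1, WT 2 and WT 3. These ratios were chosen after the values were seen, and over 6 ratios the two-sided exact permutation p-values between KO and WT ran from 0.20 to 0.50 (0.36 to 0.50 after adjustment over the 6).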
